A study of Mus musculus with 2 samples.

Results

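The proteasome subunit genes were taken by symbol: every protein-coding gene of the GENCODE vM21 annotation (mm10) whose symbol starts with Psma, Psmb, Psmc, Psmd, Psme, Psmf or Psmg followed by a digit. There were 50 such genes among 21802 protein-coding genes with a unique symbol. DNase-seq, in which DNase I cleaves the accessible DNA of isolated nuclei and the cut sites are sequenced, was done on adrenal gland tissue. The mice were adult males of the strain B6CASTF1/J, a first-generation cross, and were 18 to 20 months old. The 2 libraries form 1 group, labelled biological replicates 1 and 2, so no conditions could be compared and the only comparison is between the libraries. The labels give each library its own tissue sample and both libraries 1 donor entry, so the spread between them covers these libraries and may not cover separate animals.

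The proteasome is the protein machine that degrades proteins tagged with ubiquitin. Its 20S core is a barrel of α rings, which gate the entry, and β rings, which hold the proteolytic sites, and its 19S cap binds the ubiquitin tag, unfolds the protein with a ring of ATPases and feeds it into the core. After interferon, and constantly in leukocytes, the catalytic subunits made from Psmb5, Psmb6 and Psmb7 are replaced by those of Psmb8, Psmb9 and Psmb10 to form the immunoproteasome, whose peptides are loaded on MHC class I after transport by TAP1 and TAP2. The transcription factor NFE2L1 (NRF1, not to be confused with nuclear respiratory factor 1) raises the subunit genes together when the proteasome is inhibited, through antioxidant response elements in their promoters.

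Each library came with a list of peaks and a list of footprints. A gene was called open in a library where a peak overlapped the 1 kb to either side of any start of its protein-coding transcripts, and its height is the largest signal the authors gave such a peak, which they had normalised for depth. A footprint is a short stretch inside open chromatin that the authors called as protected from cutting. The tissue holds many cell types, so a height cannot tell apart more cells with an open promoter and a more open promoter in each cell.

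The sequences that the results turn on are the promoter elements that lay under a footprint in both libraries. They are read from the GRCm38.p6 reference genome (RefSeq), the assembly that mm10 names, and not from these hybrid mice; coordinates are mm10 and 1-based, and capitals mark the element. The first 4 are antioxidant response elements, written here as TGACNNNGC:
Psmb5, chr14:54618024-54618052, minus strand: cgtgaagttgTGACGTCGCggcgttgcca
Psmb6, chr11:70525338-70525366, plus strand: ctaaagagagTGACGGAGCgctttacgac
Psmd7, chr8:107588572-107588600, plus strand: cttaggctatTGACGAAGCttggcattga
Psmd9, chr5:123228149-123228177, plus strand: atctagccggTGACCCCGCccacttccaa

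The next is the stretch just before the start of Psmb2, the member with the largest mean height. It is shown because a BANP element in both orientations (TCTCGCGAG), a cAMP response element (TGACGTCA) and a CCAAT box on the minus strand lie in 1 run there, and it touches no annotated UTR:
Psmb2, chr4:126677570-126677629, plus strand: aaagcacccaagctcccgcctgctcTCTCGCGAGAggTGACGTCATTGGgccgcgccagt

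The last set shows an element of 2 immunoproteasome genes, of the other member with a BANP element and of the 2 members with an element of nuclear respiratory factor 1 (GCATGCGC) under a footprint:
Psmb8, cAMP response element, chr17:34197650-34197679, plus strand: ggcccggtgtgTGACGTCAgcagttcctgg
Psmb9, CCAAT box, chr17:34187322-34187350, plus strand: gggctcggctttCCAATcagcggctgcgc
Psmd5, BANP element, chr2:34870969-34870997, plus strand: cctctctgaaTCTCGCGAGatcttacgga
Psmg1, nuclear respiratory factor 1 element, chr16:95990907-95990936, minus strand: cgggccggcgcGCATGCGCtgtctggccgc
Psma2, nuclear respiratory factor 1 element, chr13:14613085-14613114, plus strand: cctcgctcagaGCATGCGCaggcccctctt

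The libraries held 98630 and 118249 peaks and 228557 and 273271 footprints, for replicates 1 and 2. Heights came in whole steps of 0.00531 and 0.00750, and if 1 step is 1 cut and heights are CPM, the depths were 188.3 and 133.3 M cuts. All 5 adrenal cortex markers checked (Cyp11a1, Star, Nr5a1, Cyp11b1, Scarb1) were open in both libraries, with heights of 1.19 to 7.13. The lowest, Cyp11b1 in replicate 2, was marginal: its lowest false discovery rate was 0.0259 and it had no footprint. That peak was also absent from the shorter of the authors' 2 peak lists. Of 5 chromaffin cell markers Chga was open in both, Dbh and Phox2a had a peak in replicate 1 alone, and the defining genes Th and Pnmt had none listed in either library. Of 6 leukocyte markers, Spi1 and Cd74 were open in both libraries with heights of 0.993 to 1.06, and Ptprc, Csf1r, Cd3e and Cd79a had no listed peak.

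Nearly all proteasome genes had open promoters in this tissue, and 2 of the 3 that did not are known for their expression in testis or thymus. Of the 50 members, 47 were open in both libraries, against 64.8% of all protein-coding genes. All 7 genes of the α ring, 7 of the standard β ring, 6 19S ATPase and 11 19S non-ATPase genes were open, as were 3 genes of 19S assembly chaperones and 4 of 20S assembly chaperones. All 5 immunoproteasome genes were open as well. Psmc3ip was open too; it matches the symbol rule but encodes a meiotic recombination factor and no proteasome subunit. The open share differed with the kind of promoter. Among genes with a CpG-rich promoter window, 37 of 38 members and 95.8% of all genes were open, while among the rest 10 of 12 members and 31.8% of all genes were.

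The 3 members not open in both libraries were Psma8, Psmb11 and Psme2b. Psma8 encodes the α subunit used by germ cells of the testis. It had a peak of height 0.210 in replicate 2 and none in replicate 1, with 79 bp listed at a false discovery rate under 0.05 in replicate 2 and 0 bp in replicate 1. Of 4 testis germ cell markers, Dazl and Sycp3 were open in both libraries, Ddx4 in replicate 1 alone and Stra8 in neither. Dazl had heights of 3.82 and 4.93. Sycp3 was marginal, with heights of 0.478 and 0.570 and lowest false discovery rates of 0.0231 and 0.0335. Its peaks were absent from the shorter peak list of each library. Psmb11 encodes the catalytic subunit of the thymoproteasome of thymic epithelium, and it had no listed peak although its start lies 3411 bp from that of Psmb5, which was open in both libraries. Among 3 thymic epithelium markers, Prss16 was open and Foxn1 and Krt5 had no listed peak. Psme2b is an intronless copy of the activator gene Psme2 with no listed peak or footprint, and how well reads map uniquely to it was not examined.

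**Figure D1:**
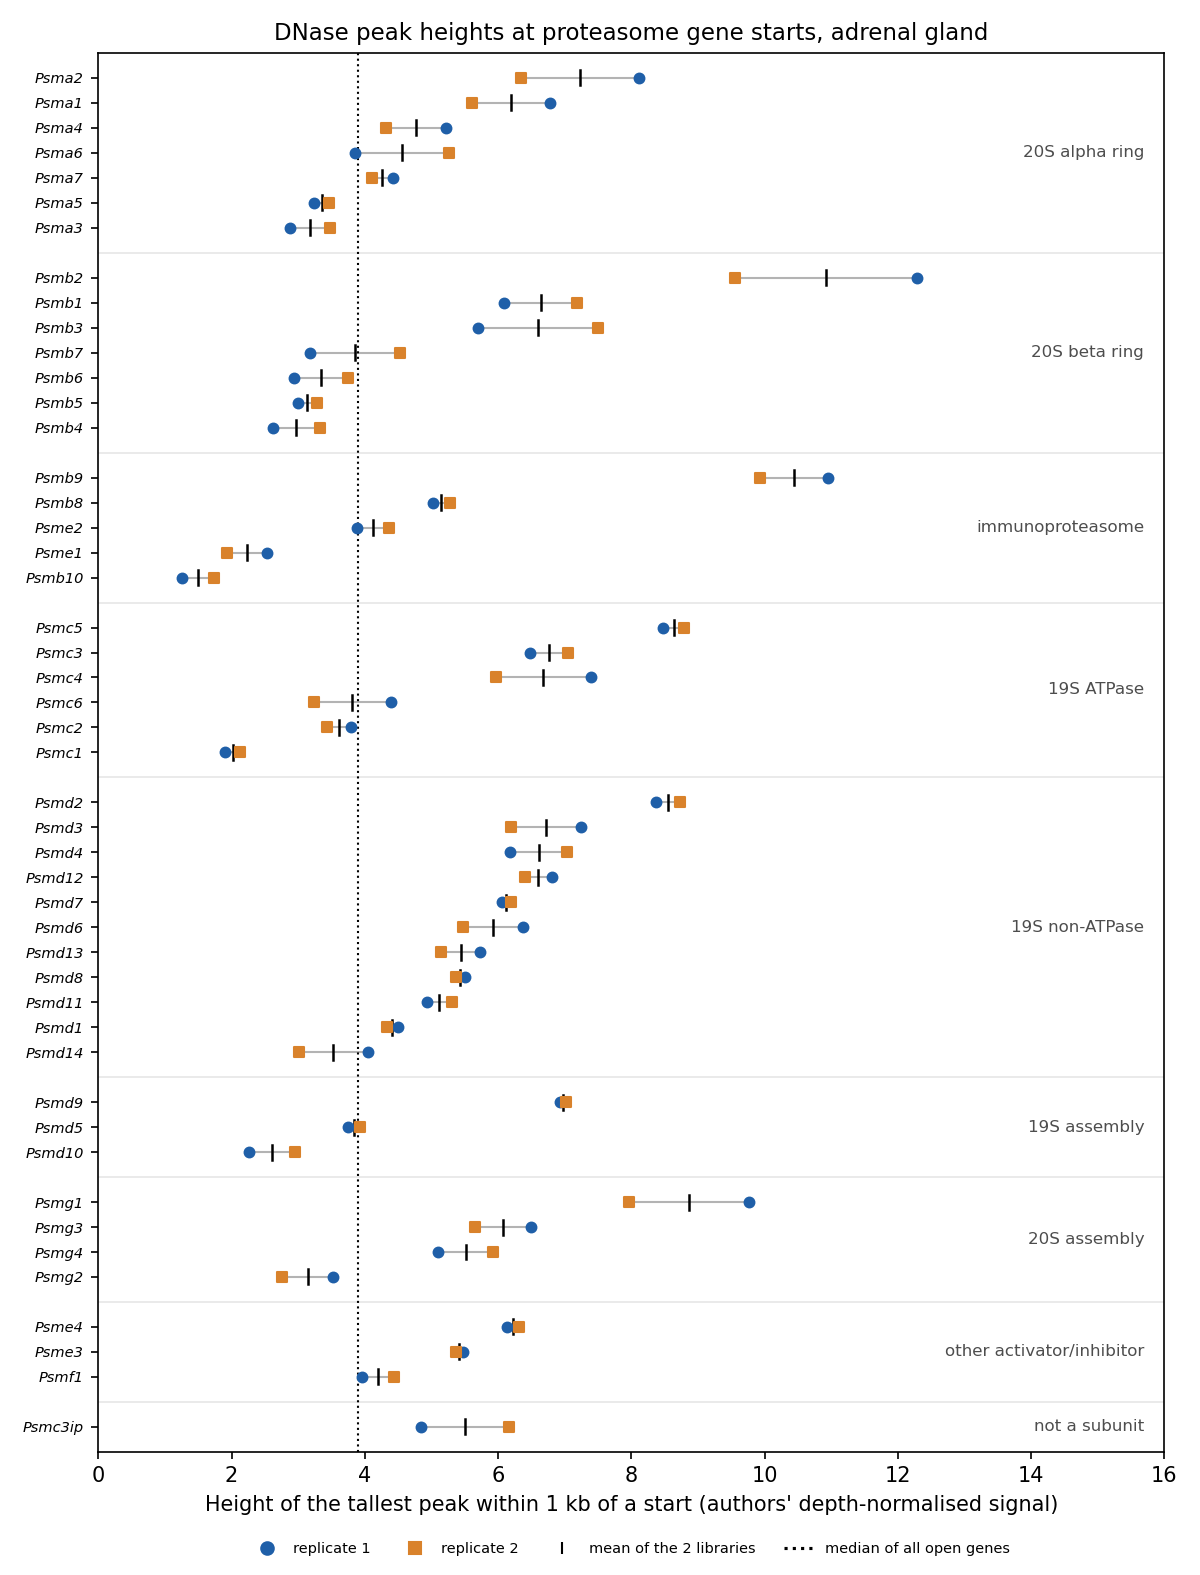
Height of the tallest peak within 1 kb of a start for the 47 proteasome genes open in both libraries, grouped by role. Circles are replicate 1, squares replicate 2, ticks their mean, and the dotted line is the median of all open genes (3.89); Psmb2 and Psmb9 lie above 9 in both libraries and Psmb10 below 2.

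Open proteasome promoters were taller than most, with a wide range among subunits of 1 complex. The median height of the 47 open members was 5.42, with a central range (25th to 75th percentile) of 3.71 to 6.61, beside a median of 3.89 over 14119 open genes and 4.53 over open genes with a CpG-rich window. The height of 32 members was above the first of these medians and that of 28 above the second. Heights ran from 1.49 for Psmb10 to 10.9 for Psmb2. By role, the medians were 4.55 for the α ring, 3.85 for the β ring, 5.24 for the 19S ATPases, 5.92 for the 19S non-ATPase subunits, 3.84 for the 19S assembly chaperones, 5.79 for the 20S assembly chaperones, 5.42 for Psme3, Psme4 and Psmf1, and 4.12 for the immunoproteasome genes. The ranges of the roles overlapped, and no order among them was tested.

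**Figure D2:**
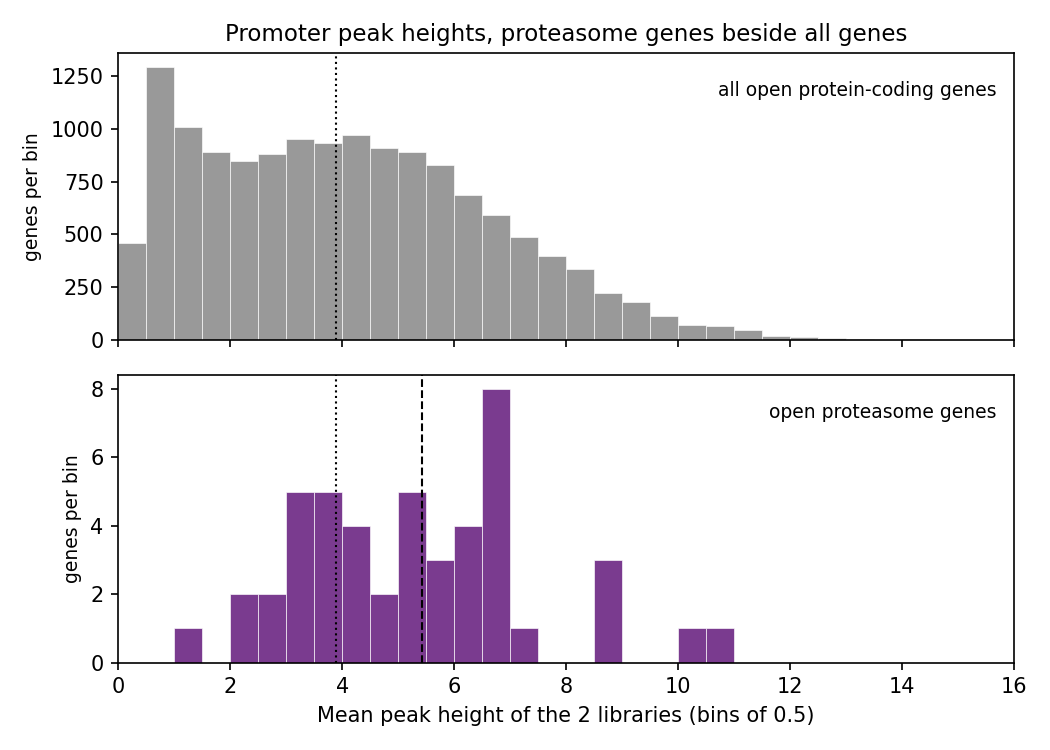
Mean peak height over the 2 libraries in bins of 0.5, for all 14119 open protein-coding genes (top) and the 47 open proteasome genes (bottom). The dotted line is the median of all open genes (3.89) and the dashed line that of the proteasome genes (5.42); no proteasome gene lies below 1.

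Among the standard genes of the 20S core, Psmb2 was the tallest in both libraries, and Psma2 was the tallest of the α ring. Psmb2, for the non-catalytic β4 subunit, had heights of 12.3 in replicate 1 and 9.56 in replicate 2 (10.9 ± 1.93, SD, n = 2), at percentile 99.2 of all open genes. Psma2, for the α2 subunit, had heights of 8.12 and 6.34 (7.23 ± 1.26, SD, n = 2), and the other α genes had means of 3.18 (Psma3) to 6.19 (Psma1). Psmb1 (6.09 and 7.19) and Psmb3 (5.69 and 7.50), both for non-catalytic subunits, came next in the β ring. The genes of the catalytic subunits were lower: Psmb5, for the chymotrypsin-like site, had 2.99 and 3.28, Psmb6, for the caspase-like site, 2.93 and 3.75, and Psmb7, for the trypsin-like site, 3.18 and 4.52. Psmb4, for a non-catalytic subunit, lay as low, at 2.62 and 3.32. In each library the 3 catalytic genes and Psmb4 lay below Psmb1, Psmb2 and Psmb3. This split was read from the heights themselves and does not follow catalytic role, so the gap is no separate result. The tallest Psmb1 peak of replicate 1 lay 18 bp from the start of Tbp. By the peak nearest to a start, Psmb1 was at 5.08 in that library.

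In the 19S cap the tallest ATPase gene was Psmc5 and the tallest non-ATPase gene was Psmd2, which encodes the scaffold subunit RPN1. Psmc5 had heights of 8.48 and 8.79 (8.63 ± 0.219, SD, n = 2) and Psmd2 of 8.37 and 8.73 (8.55 ± 0.252, SD, n = 2). The lowest ATPase gene was Psmc1, at 1.91 and 2.13 (2.02 ± 0.158, SD, n = 2). Both libraries therefore put these 2 genes at opposite ends of the 6 ATPases, whose products form 1 ring. By mean height of the tallest peak, the lowest non-ATPase gene was Psmd14, for the deubiquitinase RPN11, at 4.04 and 3.01. The other 9 non-ATPase genes had means of 4.41 (Psmd1) to 6.72 (Psmd3). With the peak nearest to a start in place of the tallest, the mean of Psmd1 (3.34) was below that of Psmd14 (3.53).

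Among assembly factors, Psmg1, whose product starts the α ring as a dimer with that of Psmg2, was high at 9.76 and 7.97 (8.87 ± 1.27, SD, n = 2). Its partner Psmg2 was at 3.52 and 2.76, below Psmg1 in both libraries. Of the chaperones of the ATPase ring, Psmd9 had heights of 6.93 and 7.03, Psmd5 of 3.75 and 3.93, and Psmd10 (gankyrin, on the X chromosome, of which these males carry 1 copy) of 2.26 and 2.95 (2.61 ± 0.490, SD, n = 2). The activator genes Psme3 (5.47 and 5.37) and Psme4 (6.13 and 6.31) and the inhibitor gene Psmf1 (3.95 and 4.44) differed little between libraries. For Psmd5, Psmd9 and Psmf1 the open start was not the 5′ end of the annotated gene: the tallest peak lay 4008, 58817 and 2826 bp from it, at another annotated start.

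The immunoproteasome genes were open in both libraries but spanned nearly the whole range of the family. Psmb9 had heights of 10.9 and 9.94 (10.4 ± 0.715, SD, n = 2), Psmb8 of 5.02 and 5.27 (5.14 ± 0.180, SD, n = 2) and Psmb10 of 1.25 and 1.74 (1.49 ± 0.348, SD, n = 2). Against the standard gene that each replaces, Psmb8 was higher than Psmb5 and Psmb10 lower than Psmb7 in both libraries. Psmb9 was higher than Psmb6 in both by the tallest peak, which it shares with Tap1, but not by the peak nearest to a Psmb9 start, which in replicate 1 had a height of 2.27 against 2.93 for Psmb6. Psme1 and Psme2, for the interferon-inducible 11S activator, had heights of 2.53 and 1.93 (2.23 ± 0.424, SD, n = 2) and of 3.88 and 4.36 (4.12 ± 0.342, SD, n = 2). Leukocyte markers, given above, were open for 2 of 6 genes at heights near 1, and the part of leukocytes in these immunoproteasome peaks was not tested.

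Several of these heights belong to a stretch shared with a neighbour. The Psmb9 peak (chr17:34187341-34187520 in replicate 1) is the same peak that gives Tap1 its height, and its centre lay 123 bp from a start of Tap1 and 211 bp from the nearest start of Psmb9 in replicate 1, and 103 and 231 bp in replicate 2. Taking the peak nearest to a start in place of the tallest, an alternative added after the data were seen, gave Psmb9 2.27 in replicate 1 and 9.94 in replicate 2, a mean of 6.10. For Psme2 the tallest peak of replicate 1 was centred at -567 bp from its start, 28 bp from the start of Rnf31, a ubiquitin ligase gene on the opposite strand, and the peak at Psme2 itself had heights of 3.35 and 4.36. The tallest Psmb10 peak lay 624 and 844 bp after the start, in an intron, and the peak at the start had heights of 0.881 and 1.24.

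**Figure D3:**
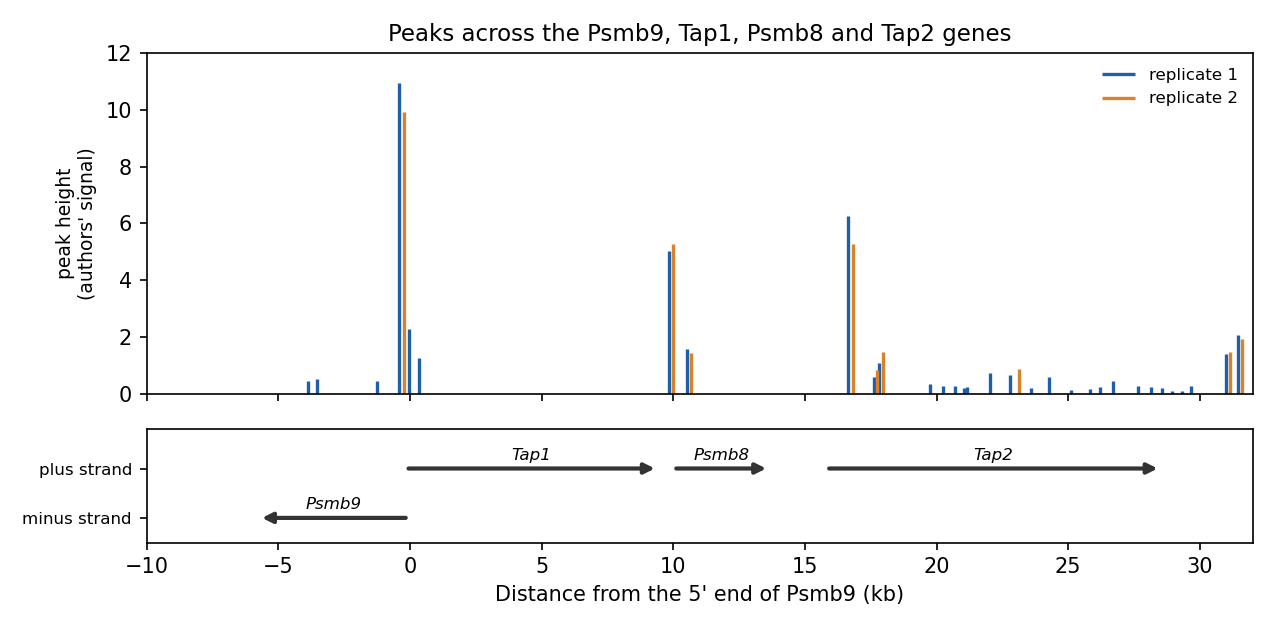
Peaks in the MHC region that holds Psmb9, Tap1, Psmb8 and Tap2, by distance from the 5′ end of Psmb9 in kb; each line is the centre and height of 1 peak, with the 2 libraries drawn side by side, and arrows below show the genes and their direction. Tall peaks stand at the Psmb9 and Tap1 starts (10.9 and 9.94), before Psmb8 (5.02 and 5.27) and at Tap2 (6.27 and 5.28), and replicate 1 has more low peaks over Tap2.

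In this cluster on chromosome 17 Psmb9 is on the minus strand and Tap1, Psmb8 and Tap2 on the plus strand, and the nearest starts of Psmb8 and Psmb9 lie 9957 bp apart. The tallest Psmb8 peak (chr17:34197581-34197760 in both libraries) was centred at -51 bp from its start and covers the cAMP response element printed above. Between 18 and 30 kb from the Psmb9 5′ end, over most of Tap2, replicate 1 listed 19 peaks with heights of 0.0903 to 0.733 and replicate 2 listed 1, of height 0.877. The Psme1 and Psme2 starts lie 12512 bp apart on chromosome 14.

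A start of another protein-coding gene on the opposite strand within 1 kb was found for 11 of the 50 members, beside 11.4% of all genes. The closest pairs were Psmc2 with Dnajc2 (32 bp between starts), Psmb9 with Tap1 (38 bp), Psma2 with Mrpl32 and Psmc5 with Ftsj3 (75 bp each), Psma7 with Ss18l1 (76 bp), Psmd13 with Sirt3 (99 bp), Psma4 with AY074887 (106 bp) and Psmb1 with Tbp (137 bp), the TATA-binding protein gene. Psmd10 with Atg4a (179 bp), Psmg2 with Cep76 (263 bp) and Psme2 with Rnf31 (595 bp) completed the set. A peak between such starts cannot be assigned to 1 of the 2 genes.

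The tallest peaks sat close to the starts. Their centres lay within 250 bp of a start for 44 of 47 open members in replicate 1 and 45 in replicate 2, beside 84.2% and 83.5% of all open genes. They lay upstream of the start for 35 and 31 members, and for 9259 and 9567 of the 14119 open genes. The stretch of the promoter window listed at a false discovery rate of 0.001 or less had a median of 762 and 866 bp per open member, beside 761 and 871 bp over all open genes. As a share of the window this was 30.5% and 34.6% for members and 26.5% and 29.9% over all open genes, whose windows are longer where genes have more starts (medians of 2071 and 2202 bp).

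The 2 libraries gave the members much the same heights. Across the 47 open members Pearson's r of log2 heights was 0.919, a correlation across genes and not samples, beside 0.962 over all open genes. The log2 ratio of replicate 1 to replicate 2 had a median of -0.04 and an SD of 0.263, beside 0.05 and 0.333 over all open genes, and 21 members were higher in replicate 1 and 26 in replicate 2. The largest ratios were those of Psmc6 (4.39 and 3.23, a log2 ratio of 0.44), Psmd14 (4.04 and 3.01, 0.42) and Psme1 (0.39). The smallest were those of Psmb7 (3.18 and 4.52, -0.51), Psmb10 (-0.48) and Psma6 (3.85 and 5.26, -0.45). With 1 step taken as 1 cut, 30 of the 47 ratios (63.8%) lay outside the 95% counting interval around no difference, as did 55.5% over all open genes. This interval covers counting error only and not the spread between samples, so it is no test of a difference.

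The difference between the libraries moved with base composition. Over the open members the log2 ratio had a Spearman correlation of 0.47 with the GC percent of the window from 250 bases before to 50 after a start, and of 0.33 over all open genes; both are descriptions across genes that share 2 libraries. Of the 16 members of lowest GC, 4 were higher in replicate 1, as were 4 of the 15 in the middle and 13 of the 16 of highest GC. Over all open genes split at the same GC values these counts were 1310 of 3342, 1775 of 3571 and 4829 of 7206, so the order is not particular to the members. The part of GC in any single member's difference was not tested.

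**Figure D4:**
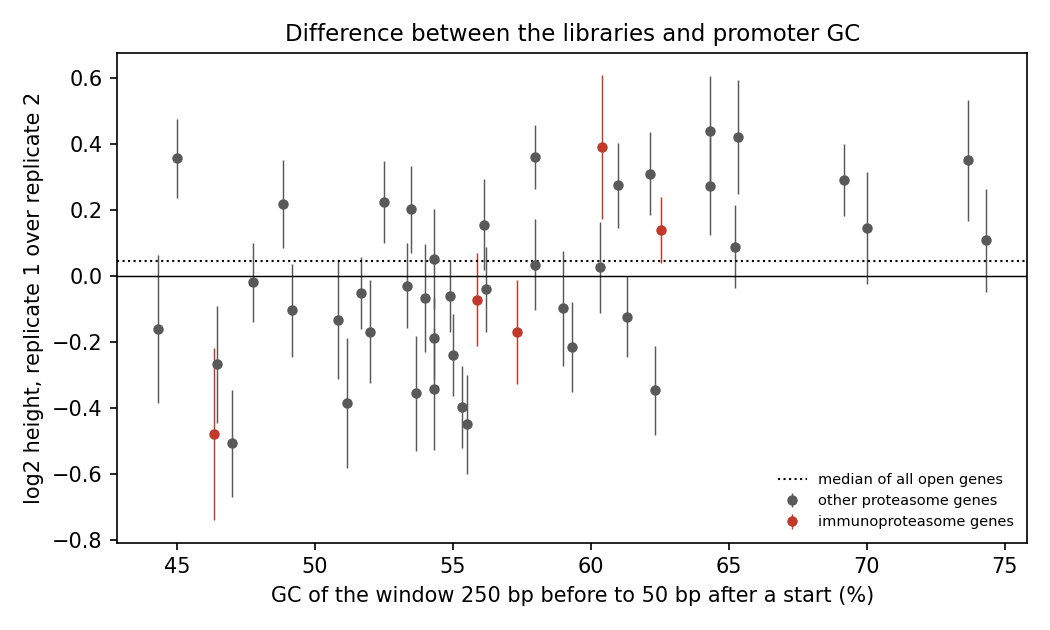
Log2 ratio of peak heights, replicate 1 over replicate 2, against the GC percent of the promoter window for the 47 open proteasome genes; bars are 95% counting intervals with 1 step taken as 1 cut, the solid line is no difference and the dotted line the median of all open genes (0.05). Ratios run from -0.51 (Psmb7) to 0.44 (Psmc6), and 13 of the 16 genes of highest GC lie above 0.

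Footprints were found within 1 kb of a start in both libraries for the same number of members as peaks, 47 of 50, beside 63.1% of all genes. The median number per open member was 7.5 over the 2 libraries, beside 7 for all open genes. Among genes with heights in the members' central range the median was 8 for the 23 members and 8 for all 4965 genes. Psme2 had 16 and 11 footprints, Psmb1 12 and 13, and Psmb3 12 and 10. Psmb2, with the largest mean height, had 6 and 3. These counts run over the windows of all starts, 3 for Psme2 and Psmb1 and 1 for Psmb3 and Psmb2. For Psme2 and Psmb1 the windows also hold the start of a neighbour, Rnf31 or Tbp, so the counts are not of like windows. Of 352 footprints near open members in replicate 1, 63.1% overlapped 1 of replicate 2, and of 335 in replicate 2, 65.4% overlapped 1 of replicate 1; over all open genes these shares were 56.5% and 55.9%.

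The members' footprints lay around the start, on both sides of it. Of them, 30.4% and 32.5% lay in the 100 bp before a start and 24.1% and 25.4% in the 100 bp after it, beside 26.3% and 27.2%, and 19.3% and 18.1%, over all open genes. In the 10 bp bin that begins 60 bp before the start nearest the tallest peak, 63.8% of open members had a footprint in replicate 1 and 66.0% in replicate 2, beside 39.0% and 41.7% of all open genes. For the 23 members of like height the shares were 73.9% in each library, and for all genes of like height 47.1% and 50.6%. The bin was chosen after its values were seen. Within 250 bp of a start lay 79.5% and 83.3% of the members' footprints, beside 72.1% and 71.6% over all open genes.

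**Figure D5:**
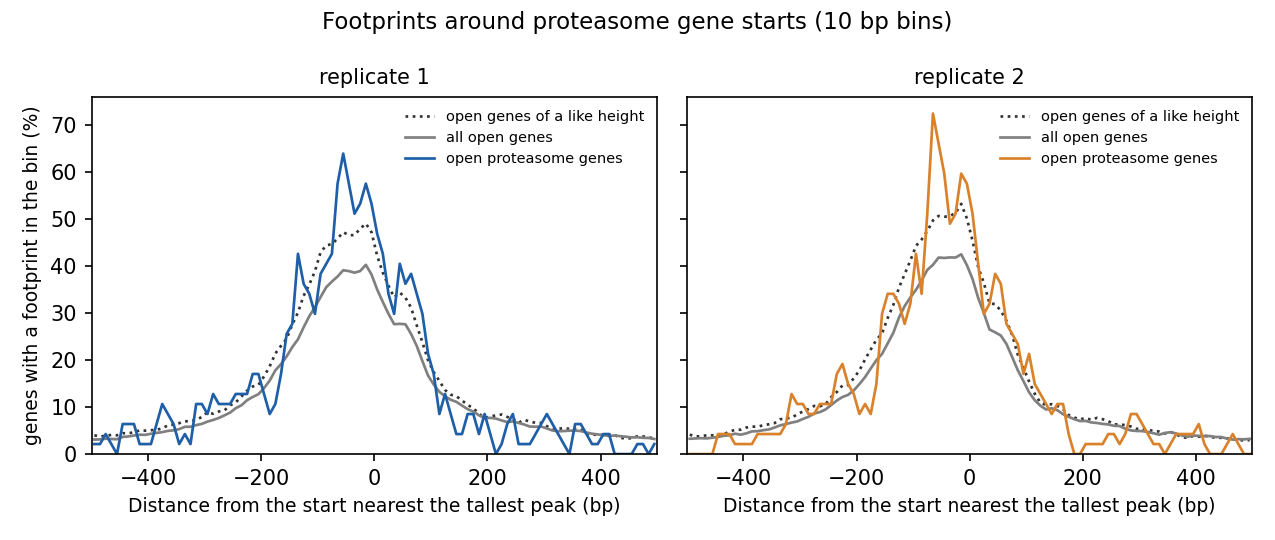
Percent of genes with a footprint in each 10 bp bin around the start nearest the tallest peak, for the 47 open proteasome genes (coloured), all open genes (grey) and the open genes within the members' central range of height (dotted), in each library. In the bin that begins 60 bp before the start the proteasome genes stand at 63.8% and 66.0% and the genes of like height at 47.1% and 50.6%.

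Antioxidant response elements, the sites through which NFE2L1 acts, were held by a share of members near that of open genes (24.1%). This holds for the window used here, and the count depends on the window, as given in the closing section. TGACNNNGC was searched on both strands from 250 bases before to 50 after each start; 14 of 50 members held a match, beside 20.7% of all genes and 25.8% of open genes with a CpG-rich window. All 14 were among the open members. A match overlapped a footprint in both libraries at 4 members, Psmb5, Psmb6, Psmd7 and Psmd9, beside 3.26% of all genes and 5.04% of open genes. The count was 1 where the match had to lie wholly inside a footprint, beside 1.17% of all genes, and 2 in the stricter form TGACNNAGC, beside 0.573%. They are the 4 sites printed first, centred at -16, -34, -122 and -27 bp from a start. Psmb6 and Psmd7 are those of the stricter form, which 7 of the 50 members and 6.27% of all genes held. The Psmd9 match overlaps a GC box (GGGCGG on the minus strand, chr5:123228164-123228169), which was also under a footprint in both libraries. Which of these elements the Psmd9 footprints cover was not tested. A match says nothing of which factor, if any, sat there. The genes of the factors themselves were open in both libraries: Nfe2l1 had heights of 6.50 and 5.53 and Nfe2l2 of 8.94 and 9.81.

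Other elements were searched the same way. The GC box GGGCGG, bound by SP and KLF factors, was found at 31 members (53.2% of all genes) and under a footprint in both libraries at 23 (27.9%). The CCAAT box, bound by NFY, was found at 24 (51.5%) and under a footprint at 7 (7.09%): Psma3, Psmb2, Psmb3, Psmb9, Psmc3ip, Psmd4 and Psme3. The Psmb9 box (chr17:34187334-34187338) lies in an annotated UTR. It is just outside the listed peak, which starts at 34187341 in both libraries, and cannot be assigned to Psmb9 or Tap1. The ETS element CCGGAAG was found at 19 (14.8%) and under a footprint at 7 (5.12%): Psmc1, Psmc3ip, Psmc6, Psmd7, Psmd11, Psme3 and Psme4. These background shares run over all genes, open or not. Over open genes alone the shares under a footprint in both libraries were 43.1% for the GC box, 10.9% for the CCAAT box and 7.90% for the ETS element. A match to these elements was held by 74.0%, 52.6% and 21.1% of open genes, and by 30, 23 and 17 of the 47 open members. Among open genes with a CpG-rich window 83.1% held a GC box.

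Less common elements were found at few members. GCATGCGC was found at 4 members (4.69%) and under a footprint at Psma2 and Psmg1 (2 members, 2.93%). At Psma2 the matches under a footprint lay at -141, -122 and -120 bp, in an annotated UTR. Mrpl32 starts 75 bp from Psma2 on the opposite strand, and these matches cannot be assigned to 1 of the 2 genes. TGACGTCA was found at Psmb2 and Psmb8 alone (2 members, 3.07%), and under a footprint at both (2.1%). TCTCGCGAG was found at Psmb2 and Psmd5 (2 members, 1.08%), and under a footprint at both (0.702%). The E-box CACGTG was found at 7 (11.6%) and under a footprint at 1 (2.44%), Psmb3. Over open genes alone these elements were found, in the order given, at 6.20%, 4.13%, 1.56% and 14.9%. Under a footprint in both libraries they lay at 4.53%, 3.24%, 1.08% and 3.76% of open genes. In the Psmb2 run printed above the cAMP response element and the CCAAT box share 1 base.

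AAGATGG, a YY1 element, was found at 12 members (11.4%) and under a footprint at 6 (1.35%): Psmb5, Psmb6, Psmc4, Psmd4, Psmd7 and Psmd11. Over open genes alone these shares were 13.0% and 2.09%. The letters AAGATGG contain ATG and can be the start of translation. At 3 of the 6 members (Psmb6, Psmd4 and Psmd11) the match lay over an annotated start codon, as it did at 30.8% of the 295 genes of all with such a footprint. In Psmd7 the AAGATGG match (-69 bp), a match to the interferon-stimulated response element (-79 bp) and the antioxidant response element (-122 bp) lay close together before the start, each under a footprint in both libraries. The antioxidant response element (chr8:107588582-107588590) lies just outside the listed Psmd7 peak, which ends at 107588580 in both libraries.

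The remaining elements were under a footprint in both libraries at 0 to 2 members each. The interferon-stimulated response element, GAAANNGAA, was found at 8 members (15.1%) and under a footprint at 2 (0.555%), Psmb4 and Psmd7. Of the 5 immunoproteasome genes only Psme1 held a match to these letters in this window, with no footprint over it in either library. The NF-κB element GGGANTTTC was found at 1 member (2%) and under a footprint at 0 (0.119%). The heat shock element GAANNTTC was found at 5 (12.6%) and under a footprint at 1 (0.587%), Psmf1. The AP-1 element TGANTCA was found at 2 (12%) and under a footprint at 0 (0.353%), and the element of the adrenal factor SF-1, TCAAGGTCA, at 1 (0.826%) and under a footprint at 0 (0.00459%). Over open genes alone these 5 elements were found, in the order given, at 14.6%, 1.98%, 11.4%, 10.6% and 0.765%. Under a footprint in both libraries they lay at 0.857%, 0.184%, 0.907%, 0.545% and 0.00708% of open genes. Only the letters given were searched, so other forms of each element were not counted.

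The genes that work with the proteasome were also open. Of 44 listed genes of proteasome regulation, assembly, ubiquitin supply, substrate delivery and antigen processing, 43 matched the annotation. All 43 were open in both libraries, beside 64.8% of all genes and 95.8% of genes with a CpG-rich window. Their median height was 5.41, beside 3.89 over all open genes and 4.53 over open genes with a CpG-rich window. Adrm1 and Sem1, subunit genes of the 19S cap that carry other symbols, had heights of 9.36 and 6.64 and of 5.41 and 4.56. Pomp, for the chaperone of β-ring assembly, had 4.96 and 5.25. Irf1, for a factor that raises immunoproteasome genes after interferon, had 6.28 and 4.78. Tap1 had 10.9 and 9.94, from the peak it shares with Psmb9.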

How the data were processed

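DNase-seq libraries of adrenal gland, 1 each for biological replicates 1 and 2, were used. The authors called peaks and footprints, and computed false discovery rates, in each library on mm10, per the labels. The aligner and callers used were not given in the sources used here. Of the 2 deposited peak lists per library the longer was used. The authors' height of each peak (a depth-normalised signal, column 7) came in whole steps, with 100% of heights within 0.05 of a whole step. The false discovery rate (a q-value) deposited by the authors is listed per stretch under 0.05. The footprint lists deposited by the authors carry a score that is always 0.01, which was ignored.

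The members, gene lists and elements were chosen with earlier results of these data known, and no list is independent evidence. Genes were protein-coding on chromosomes 1 to 19, X and Y of GENCODE vM21, with 54236 starts; 54 records sharing a symbol were left out. All members are accounted for; values are given for the immunoproteasome and tissue-restricted members, the 6 highest and 6 lowest, the 3 largest and 3 smallest library ratios, members with footprinted antioxidant response elements, those with an opposite-strand partner and the 3 with most footprints, and others to complete a role. A window was CpG-rich with GC of at least 0.5 and an observed to expected CpG ratio of at least 0.6, from 250 bases before to 50 after any start. Overlap meant at least 1 bp. With 1 library a side no test was possible. Alternatives were the shorter peak list, windows of 500 bp and 2 kb, the gene 5′ end alone, peak centres, footprints inside peaks and each library alone. Scripts ran in Python 3.11.15 with numpy 2.4.6 and pysam 0.24.0 (samtools 1.23.1 for indexing) and were tested on simulated data. The 47 RefSeq promoter entries of 43 members were identical to the genome used.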

Additional observations from a re-analysis of the deposited data

How the results depend on the processing

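The counts of open members, open CpG-rich members, open immunoproteasome genes, members with a footprint and open pathway genes stayed within 1.5 times under every alternative run, and the median library ratio within 1 SD. Open members numbered 44 by the gene 5′ end alone and 48 without replicate 1. Leaving out either library gave a median height of 5.10 to 5.29, beside 3.81 and 3.67 for all open genes, and a median of 7 to 7 footprints. The median number of footprints was 6.5 in a 500 bp window, 5.5 inside peaks and 7 at the gene 5′ end alone, with 6.5, 5.5 and 6.5 over all open genes. Antioxidant response elements are set by the window and letters: 25 members held one from 500 bases before to 100 after a start, 6 at the gene 5′ end alone and 7 in the stricter form, beside 32.1%, 12.5% and 6.27% of all genes. Under a footprint were 1 when the match had to lie wholly inside it and 2 in the stricter form. Of single heights, Psma6 fell to 0.690 at its gene 5′ end, Psmb10 was 3.37 and Psmc2 5.06 in a 2 kb window, and with the peak nearest to a start, added after the data were seen, Psmb9, Psmb10 and Psmd1 were 6.10, 1.06 and 3.34. No paired analysis was possible because there is 1 group. With 2 libraries no spread here can be tested, and a gene without a listed peak may lie under the authors' threshold.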
